A study of Homo sapiens with 8 samples.

Results

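The set described here is the core machinery that carries a human cell from G1 into S phase. It holds the D-type cyclin genes CCND1 and CCND3, the E-type cyclin genes CCNE1 and CCNE2, the cyclin-dependent kinase genes CDK2, CDK4 and CDK6, the inhibitor genes CDKN1B and CDKN2A, and RB1. The 10 genes were chosen by name for these roles, with earlier results of these data known, out of 16829 genes listed. All 10 passed the filter on low counts, as did 14157 genes in all.

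Bulk RNA sequencing of 2 established human colon cancer lines, RKO and SW480, supplied the values, with 4 groups of 2 libraries each. The question set by the study is how raising or lowering CYP1B1, a cytochrome P450 enzyme that oxidises hormones and xenobiotics, alters gene expression during proliferation. In RKO, cells labelled as CYP1B1 overexpression were set against cells labelled as normal control. In SW480, cells carrying shCYP1B1 and labelled as knockdown were set against shNT cells, also labelled as normal control. A CYP1B1 lentivirus is named for both lines, and all 4 groups were grown in DMEM with 10% fetal bovine serum and antibiotics. Both shCYP1B1 libraries carry the same tag in their labels, and its meaning is not given. The labels do not say which vector the RKO control cells received, or how many hairpins or clones were used. Nor do they say whether the 2 libraries of a group came from separate cultures. The p-values therefore measure only the spread between these libraries, which may be technical.

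Progress through G1 works as a relay. Mitogens raise the D cyclins, which bind CDK4 or CDK6 and begin to phosphorylate the retinoblastoma protein encoded by RB1. Phosphorylated retinoblastoma protein lets go of the E2F transcription factors, which switch on cyclin E and the replication genes, and cyclin E with CDK2 completes the step. The CDKN2A product p16INK4a blocks CDK4 and CDK6, while p27, the CDKN1B product, binds and restrains cyclin E and CDK2. In colorectal cancer the pathway lies downstream of Wnt signalling, and cyclin D1 is one of its best known members. Much of this control is exerted on protein stability and phosphorylation, which RNA levels do not measure.

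The labels were first checked against CYP1B1 and cell type markers. CYP1B1 stood at 0.697 and 0.726 CPM (counts scaled to a common library total) in the RKO control libraries and at 443 and 526 with overexpression. In SW480 it stood at 1.43 and 2.20 CPM in shNT against 0.354 and 0.290 in shCYP1B1, so the targeted gene followed the labels. The SW480 values rest on few reads, with 50 and 76 counts in shNT and 12 and 10 in shCYP1B1. The overexpression count does not separate introduced from resident transcripts. Library totals ran from 31550173 to 34921085 counts. Of 8 epithelial markers, 7 were over 1 CPM in SW480, with summed levels of 5074 to 5735 CPM, whereas 4 were over 1 CPM in RKO, with sums of 250.1 to 298.2 CPM and KRT20 at 0 counts in all 4 RKO libraries. In SW480 that sum is mostly KRT8 and KRT18, which stood higher in shCYP1B1. Of the 7 markers tested, 2 rose and 4 fell in shCYP1B1, where 25.3% of all genes went each way. CDH1 was also higher, at 5.97 and 6.58 CPM in shNT and 9.93 and 8.93 in shCYP1B1. EPCAM read 130.9 and 131.3 CPM in shNT and 22.5 and 23.3 in shCYP1B1 (edgeR, adjusted p = 3.45e-08), and VIL1 fell by 3.19, KRT19 by 0.92 and CDX2 by 0.86 on the log2 scale. In RKO, KRT8 rose and no marker fell. Summed levels of 15 stromal, endothelial and immune markers were 9.262 to 15.43 CPM in RKO, 20.33 to 23.96 CPM in shNT and 31.07 to 31.99 CPM in shCYP1B1, with ALB and CD3E at 0 in all RKO libraries. The part of these markers in the results was not tested. Of the 4 pairs of libraries, the RKO overexpression pair was the least alike. Its libraries differed over 2-fold in 64 of 10287 genes, against 5 of 10287 in RKO control, 13 of 10995 in shNT and 5 of 10995 in shCYP1B1. RKO values are therefore also given without each overexpression library, in which case the lone library is assumed to vary like those of the other groups.

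RefSeq (GRCh38.p14) lists a promoter window for 7 of the 10 genes (not CCND1, CCNE2 or CDK2). Stretches are shown for CCND3 and CDKN2A, which rose in both lines, and for the kinase partners CDK4 and CDK6, which fell together in SW480. RB1, which fell in both lines, is not shown, since its listed window belongs to an internal alternative start. Each stretch runs 5′ to 3′ on the strand of the gene, and capitals mark a motif match. The motifs searched, on both strands of the 250 bases before each start, were the E-box CACGTG, the GC box GGGCGG, the CCAAT box CCAAT, the cAMP element TGACGTCA, the AP-1 site TGANTCA, the FOXO site GTAAACA and the E2F sites TTTCCCGC, TTTCGCGC, TTTGCCGC and TTTGGCGC. Stretches that the annotation counts as untranslated region were left out beyond 30 bases.
CCND3, chr6:41941849-41942058, minus strand: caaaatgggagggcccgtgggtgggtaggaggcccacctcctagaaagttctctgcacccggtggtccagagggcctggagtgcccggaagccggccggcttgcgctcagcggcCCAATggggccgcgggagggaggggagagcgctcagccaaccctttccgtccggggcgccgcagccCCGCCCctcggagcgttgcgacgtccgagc
CDKN2A, upstream start, chr9:21995325-21995574, minus strand: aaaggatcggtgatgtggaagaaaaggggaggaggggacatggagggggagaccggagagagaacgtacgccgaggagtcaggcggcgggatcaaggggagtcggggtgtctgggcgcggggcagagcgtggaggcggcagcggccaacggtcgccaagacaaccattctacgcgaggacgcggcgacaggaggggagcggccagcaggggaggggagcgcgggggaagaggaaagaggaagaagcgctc
CDKN2A, downstream start, chr9:21974875-21974904, minus strand: ccagagggtgGGGCGGaccgcgtgcgctcg
CDK4, chr12:57752499-57752528, minus strand: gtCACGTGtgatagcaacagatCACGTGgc
CDK6, chr7:92836595-92836823, minus strand: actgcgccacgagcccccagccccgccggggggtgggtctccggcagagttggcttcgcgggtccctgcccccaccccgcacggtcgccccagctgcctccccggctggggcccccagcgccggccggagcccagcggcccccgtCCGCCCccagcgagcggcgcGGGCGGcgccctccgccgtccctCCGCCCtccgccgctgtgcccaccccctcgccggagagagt

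The CDK4 window held 3 E-boxes, an element read by basic helix-loop-helix factors, at 216, 196 and 101 bases before the start, and 6.34% of 35116 windows of the same length hold at least 1. The CDK6 stretch held 3 GC boxes and no E-box, so the paired kinase genes share the GC box only. At least 1 GC box is found in 42.6% of all windows. The shown CCND3 start had a CCAAT box 136 bases upstream, as have 32% of windows somewhere, and 2 GC boxes. The upstream CDKN2A start, which serves p14ARF, held none of the motifs, and the downstream start, which serves p16INK4a, held 1 GC box. Neither a site for E2F (2.79% of windows) nor one for FOXO (2.98%) nor a cAMP element (1.65%) was found in a window of these 7 genes. An AP-1 site (6.57% of windows) appeared once, in the RB1 window. These matches describe letters within the windows, and the files hold no binding data.

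CCND1 lies on chromosome 11 from 69641087 to 69654474 (GRCh38, GENCODE 29). Its product, cyclin D1, is the D cyclin most often raised in epithelial tumours. Levels below are in FPKM, the deposited scale of fragments per unit of gene length and library total. It allows genes to be set beside each other as far as the fixed length used per gene holds. CCND1 read 38.0 and 39.5 FPKM in the RKO control libraries, 46.0 and 56.7 with CYP1B1 overexpression, 353 and 357 in SW480 shNT, and 390.5 and 384.6 in shCYP1B1. The groups did not overlap, and every SW480 library stood far above every RKO library. In RKO, CCND1 rose by 0.43 ± 0.09 on the log2 scale with overexpression (SE, 2 against 2 libraries, edgeR quasi-likelihood test, adjusted p = 0.00394). That change was 0.57 without overexpression replicate 1 and 0.27 without replicate 2, both past the threshold. In SW480 the difference of 0.17 ± 0.08 did not pass (edgeR, adjusted p = 0.115, 95% interval -0.01 to 0.36). It passed when SW480 was fitted alone (edgeR, adjusted p = 1.49e-07).

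CCND3, on chromosome 6 from 41934933 to 42050357, encodes cyclin D3, a partner of the same kinases. It read 25.6 and 26.1 FPKM in RKO control, 33.9 and 36.7 with overexpression, 33.5 and 36.6 in shNT, and 57.9 and 57.6 in shCYP1B1. The manipulated libraries were above their controls in both lines, and overexpressing RKO overlapped with shNT SW480. CCND3 rose in RKO by 0.46 ± 0.07 (edgeR, adjusted p = 0.0011) and by 0.52 and 0.40 without overexpression replicates 1 and 2. In shCYP1B1 it rose by 0.76 ± 0.07, a 1.7-fold increase (edgeR, adjusted p = 8.68e-06). This was the smallest p of the 10 genes in each line.

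The third D cyclin gene, CCND2, is not among the 10 genes. It was the line marker in the opposite sense, with 233 and 227 CPM in RKO control and 49.6 and 48.9 in shNT. It rose in shCYP1B1 to 88.9 and 96.7 CPM (log2 fold change 0.91 ± 0.07, edgeR, adjusted p = 2.61e-06) and read 0.09 ± 0.07 with RKO overexpression (adjusted p = 0.403). CCND1 exceeded CCND3 by 1.5-fold in RKO control and 1.45-fold with overexpression, against 10.1-fold in shNT and 6.71-fold in shCYP1B1 (ratio of FPKM, from the mean log2 ratio of 2 libraries). On the log2 scale the ratio was 3.34 ± 0.08 in shNT and 2.75 ± 0.01 in shCYP1B1 (SD, n = 2), so the shCYP1B1 cells held relatively more CCND3.

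**Figure D1:**
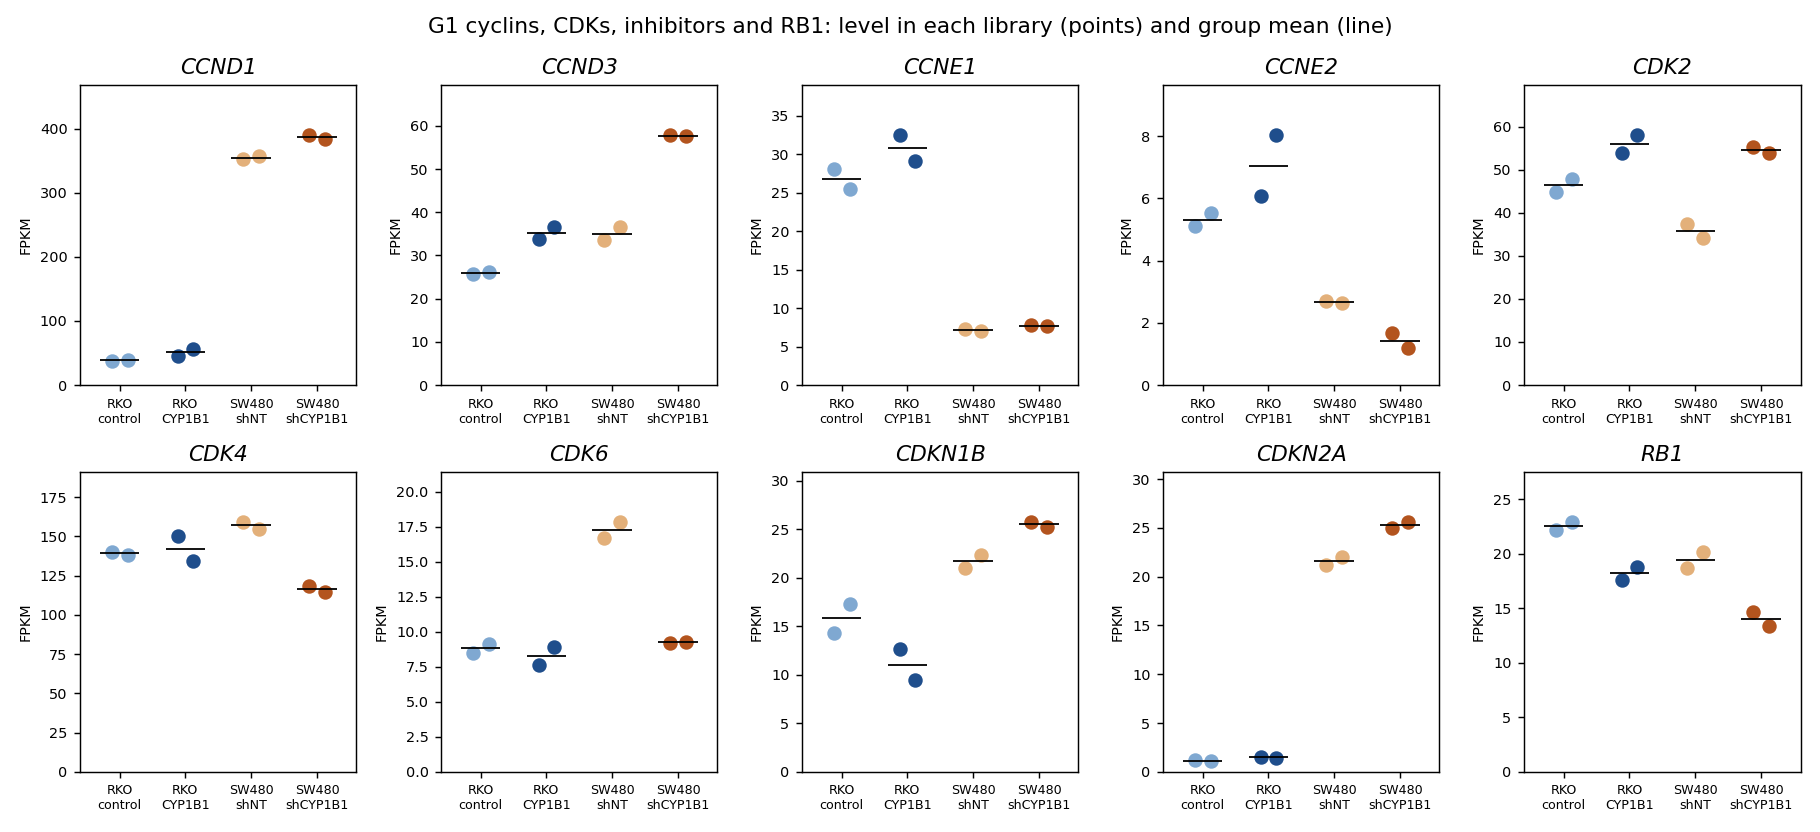
Level of each of the 10 genes in FPKM (vertical axes, each from 0) in the 8 libraries, grouped along the horizontal axes; points are libraries and lines are means of 2. CCND1 runs from 38.0 to 390.5 FPKM and CDKN2A from 1.08 to 25.6 FPKM with SW480 above RKO throughout, while CCNE1 is above 25 FPKM in RKO and below 8 in SW480.

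CDK4 and CDK6 encode the interchangeable catalytic partners of the D cyclins. CDK4, on chromosome 12 from 57747727 to 57756013, was the more abundant in every library. It read 140 and 138 FPKM in RKO control, 150 and 134 with overexpression, 159 and 155 in shNT, and 119 and 114 in shCYP1B1. The RKO groups overlapped, and the shCYP1B1 libraries were the lowest of all 8. CDK4 fell in shCYP1B1 by 0.39 ± 0.07 on the log2 scale (edgeR, adjusted p = 0.000894). In RKO its change was 0.05 (adjusted p = 0.671, 95% interval -0.11 to 0.20), and -0.03 without overexpression replicate 1.

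CDK6, on chromosome 7 from 92604921 to 92836594, read 8.51 and 9.16 FPKM in RKO control and 7.62 and 8.89 with overexpression, which overlapped. In SW480 it stood at 16.7 and 17.9 FPKM in shNT and at 9.22 and 9.30 in shCYP1B1, just above the RKO level. CDK6 fell there by 0.86 ± 0.08 on the log2 scale, to 0.552 of the shNT level (edgeR, adjusted p = 9.27e-06). In RKO the value was -0.08 (adjusted p = 0.523, 95% interval -0.26 to 0.10), with 0.03 and -0.20 without overexpression replicates 1 and 2, of which the latter passed (adjusted p = 0.0223). Both kinase genes thus fell in shCYP1B1 while CCND3 and CCND2 rose. The ratio of CDK4 to CDK6 was 9.09 in shNT and 12.6 in shCYP1B1, against 15.8 and 17.2 in RKO control and overexpression. Its size depends on the gene lengths implied by FPKM, 1865 bases for CDK4 and 12020 for CDK6. In counts, RKO control replicate 1 held 8264 for CDK4 and 3227 for CDK6.

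**Figure D2:**
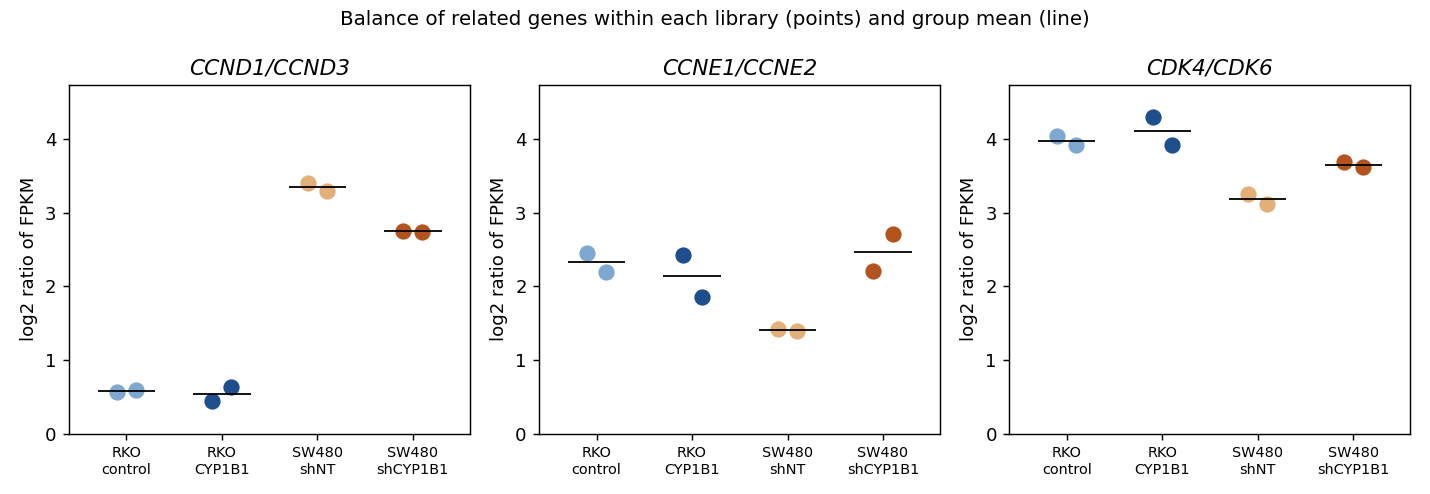
log2 ratio of FPKM between related genes (vertical axes) in each library, grouped along the horizontal axes, with points for libraries and lines for means of 2. The CCND1/CCND3 ratio separates the lines, with means of 0.58 and 0.54 in RKO and 3.34 and 2.75 in SW480, and the CCNE1/CCNE2 ratio is lowest in shNT, at 1.41.

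CCNE1 and CCNE2 encode cyclins E1 and E2, the activators of CDK2, and are themselves E2F targets. CCNE1, on chromosome 19 from 29811898 to 29824308, read 28.0 and 25.4 FPKM in RKO control, 32.5 and 29.1 with overexpression, 7.22 and 6.96 in shNT, and 7.74 and 7.72 in shCYP1B1. Every RKO library was above every SW480 library, and within each line the manipulated libraries were slightly higher. Neither step passed. The change was 0.22 ± 0.10 in RKO (edgeR, adjusted p = 0.123, 95% interval 0.00 to 0.44) and 0.17 ± 0.11 in SW480 (adjusted p = 0.219, 95% interval -0.07 to 0.41). Without overexpression replicate 2 the RKO value was 0.30 and passed (adjusted p = 0.0377), and without replicate 1 it was 0.14.

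CCNE2, on chromosome 8 from 94879770 to 94896678, was the least abundant cyclin gene of the set. It read 5.11 and 5.52 FPKM in RKO control, 6.07 and 8.04 with overexpression, 2.71 and 2.64 in shNT, and 1.68 and 1.18 in shCYP1B1. CCNE2 fell in shCYP1B1 by 0.86 ± 0.19 on the log2 scale (edgeR, adjusted p = 0.0032), from 361 and 349 counts to 217 and 155. Without shCYP1B1 replicate 2 the value was -0.62 with an adjusted p of 0.0511. In RKO it read 0.43 ± 0.18 and did not pass (edgeR, adjusted p = 0.0967), with 0.62 and 0.21 without overexpression replicates 1 and 2, of which the former passed (adjusted p = 0.00347). The CCNE2 locus overlaps INTS8, which had 1190 to 5544 counts per library, and NDUFAF6 on the opposite strand. The kit was stranded, but whether strand was used in counting is not given in the sources used here, so reads from such partners may not be separated. INTS8 moved the other way in shCYP1B1 (0.57, edgeR, adjusted p = 0.00022) and NDUFAF6 fell by 0.44 (adjusted p = 0.0154), and their part in the CCNE2 value was not tested.

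CDK2, on chromosome 12 from 55966769 to 55972784, encodes the kinase that cyclin E switches on. It read 44.9 and 47.8 FPKM in RKO control, 53.9 and 58.1 with overexpression, 37.3 and 34.0 in shNT, and 55.2 and 53.9 in shCYP1B1. The manipulated libraries of both lines were above their controls and overlapped with each other. CDK2 rose in shCYP1B1 by 0.66 ± 0.08, or 1.58-fold (edgeR, adjusted p = 3.39e-05). In RKO it rose by 0.29 ± 0.08 (edgeR, adjusted p = 0.015), and by 0.34 and 0.23 without overexpression replicates 1 and 2. That RKO call was lost without control replicate 1 (0.26, adjusted p = 0.116) or control replicate 2 (0.33, adjusted p = 0.0661). CCNE1 exceeded CCNE2 by 5.02-fold in RKO control, 4.4-fold with overexpression, 2.65-fold in shNT and 5.5-fold in shCYP1B1.

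CDKN1B, on chromosome 12 from 12715058 to 12722371, encodes p27, which holds cyclin E and CDK2 inactive. It read 14.3 and 17.3 FPKM in RKO control, 12.7 and 9.44 with overexpression, 21.0 and 22.4 in shNT, and 25.8 and 25.2 in shCYP1B1. The overexpression libraries were below both controls, and the shCYP1B1 libraries were above both of theirs. CDKN1B fell in RKO by 0.50 ± 0.13 on the log2 scale (edgeR, adjusted p = 0.0159), with -0.73 and -0.31 without overexpression replicates 1 and 2. Without control replicate 2, the higher of the RKO control libraries, it was -0.37 and did not pass (adjusted p = 0.169). In SW480 the difference was 0.28 ± 0.13 (edgeR, adjusted p = 0.0922), and it passed when SW480 was fitted alone (adjusted p = 0.000211).

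CDKN2A, on chromosome 9 from 21967753 to 21995301, gives rise to p16INK4a and, from the upstream start shown above, to p14ARF, which acts on the p53 pathway instead. The table sums both kinds of transcript, so the value cannot be assigned to either. It read 1.23 and 1.08 FPKM in RKO control, 1.55 and 1.42 with overexpression, 21.2 and 22.0 in shNT, and 25.0 and 25.6 in shCYP1B1. The gene was low in all RKO libraries and abundant in all SW480 libraries. CDKN2A rose in both lines, by 0.38 ± 0.11 in RKO (edgeR, adjusted p = 0.0256) and by 0.27 ± 0.08 in shCYP1B1 (adjusted p = 0.0159). Both calls were near the threshold. The RKO call was lost without control replicate 2 (0.28, adjusted p = 0.198) or overexpression replicate 1 (0.32, adjusted p = 0.0722), and the SW480 call without any 1 of its 4 libraries (adjusted p from 0.0606 to 0.0987).

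RB1, on chromosome 13 from 48303726 to 48599436, encodes the retinoblastoma protein on which the kinases act. It read 22.2 and 22.9 FPKM in RKO control, 17.6 and 18.8 with overexpression, 18.7 and 20.2 in shNT, and 14.7 and 13.4 in shCYP1B1. The manipulated libraries were below their controls in both lines, and overexpressing RKO overlapped with shNT. RB1 fell by 0.43 ± 0.08 on the log2 scale in shCYP1B1 (edgeR, adjusted p = 0.000868) and by 0.29 ± 0.08 in RKO (adjusted p = 0.0158). Without overexpression replicates 1 and 2 the RKO values were -0.24 and -0.34. The RKO call was lost without control replicate 1 (-0.30, adjusted p = 0.0751) or control replicate 2 (-0.28, adjusted p = 0.108).

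**Figure D3:**
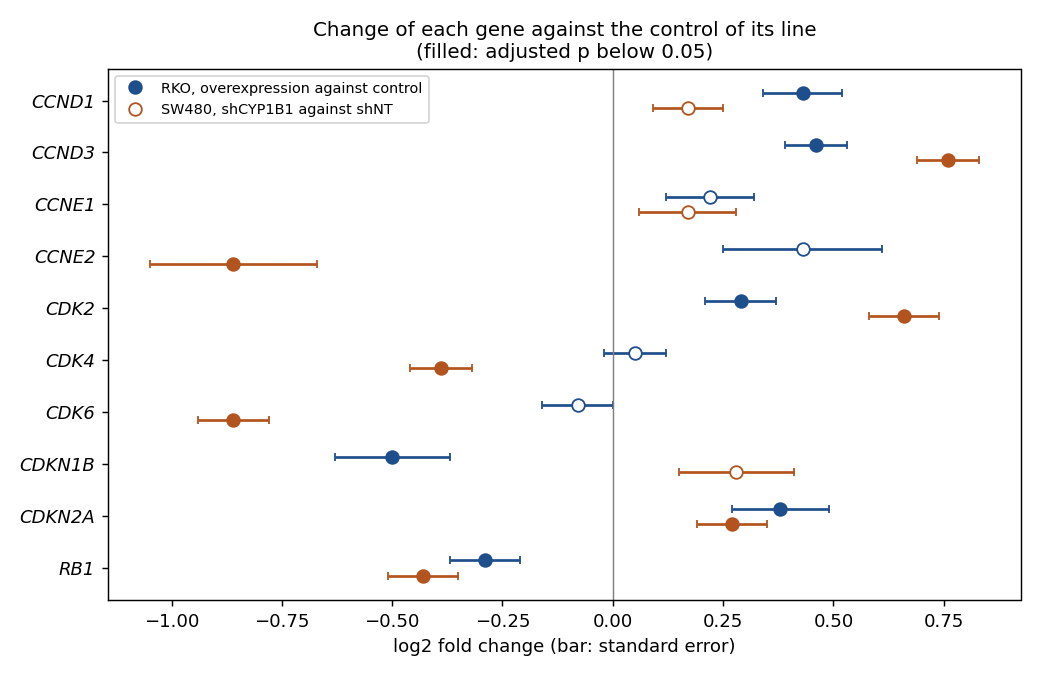
log2 fold change against the control of the same line (horizontal axis) for each gene (rows), RKO in blue and SW480 in orange, with standard error bars and filled points for adjusted p below 0.05. CCND3, CDK2 and CDKN2A are filled on the right and RB1 on the left in both lines, while CDK6 reads -0.86 in SW480 and -0.08 in RKO.

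Counted over the set, 4 of the 10 genes rose and 2 fell in RKO, against a background of 27.6% of all 14157 genes called. In shCYP1B1, 3 rose and 4 fell, against a background of 50.6%. The median log2 change of the 10 was 0.26 in RKO and 0.17 in SW480, with 0.00 over all genes in both. For 6 reference genes it was 0.22 in RKO, close to that of the 10, and -0.01 in SW480. Libraries of the 2 groups did not overlap for 8 of the 10 in RKO, where 58.8% of all genes did not overlap, and for all 10 in SW480, where 80.7% did not. Fitted on the RKO libraries alone, only CCND1 and CCND3 passed in RKO, and the same 2 passed without control replicate 2. No RKO change of the 10 passed a test against a fold change of 1.5, and in SW480 2 did.

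Between the control groups of RKO and SW480, 9 of the 10 genes differed, with a background of 76.8% of all genes, so that differing was the rule. The SW480 controls carried shNT and the RKO control vector is not given, so line and vector cannot be told apart here. In RKO control 3 were higher (background 35.6%) and 6 lower (background 41.2%), and the libraries of all 10 did not overlap, as for 90.1% of genes. CDKN2A showed the largest gap of the 10, at -4.27 ± 0.10 for RKO control minus shNT (edgeR, adjusted p = 7.41e-12), and CCND1 followed at -3.24 ± 0.09 (adjusted p = 3.08e-11). SW480 thus held more CCND1 RNA and more CDKN2A RNA, the latter summed over p16INK4a and p14ARF transcripts. CCNE1 was 3.66-fold higher in RKO (1.87 ± 0.11, adjusted p = 1.5e-08) and CCNE2 1.93-fold higher (0.95 ± 0.18, adjusted p = 0.000531). CDK6 was at 0.495 of its SW480 level in RKO (adjusted p = 4.22e-07). CCND3 read -0.48, CDKN1B -0.50, CDK4 -0.22 and CDK2 0.33, all past the threshold, and RB1 0.17 (adjusted p = 0.0604). The CDKN1B call was lost without RKO control replicate 1 (adjusted p = 0.0604), and the CDK4 call without RKO control replicate 2 or shNT replicate 1. These control libraries also serve the comparisons within each line.

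The manipulations of the 2 lines run in opposite directions, so a gene that follows CYP1B1 would rise in RKO and fall in shCYP1B1. By edgeR, 6.59% of all genes were called in opposite directions in the 2 lines. Of the 10, none was so called by edgeR, DESeq2 or limma, a count near that share. At an unadjusted p below 0.05 there was 1, CCNE2, which read 0.43 in RKO and -0.86 in shCYP1B1. Leaving out overexpression replicate 1 gave 2 such genes and leaving out replicate 2 gave 1. In the same direction 4 genes were called, CCND3, CDK2 and CDKN2A higher and RB1 lower, where 9.11% of all genes were, 4.49% higher and 4.62% lower. That count was 2 without RKO control replicate 1, 1 without control replicate 2, and 2 when each line was fitted alone.

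The difference between the lines was tested directly with the effect in each line taken as CYP1B1-high minus CYP1B1-low. High is relative to each line, with CYP1B1 at 443 and 526 CPM in overexpressing RKO and 1.43 and 2.20 in shNT. Since shNT is the high group of SW480, this difference equals the sum of the changes against control in RKO and SW480. A gene called in the same direction in both lines thus tends to pass, which adds no separate evidence. The difference passed for 7 of the 10 genes, with a background of 42.6%. CCND3 differed most, by 1.23 ± 0.10 (edgeR, adjusted p = 8.42e-06), since it was higher with more CYP1B1 in RKO and with less in SW480. CDK2 differed by 0.95 ± 0.11 (adjusted p = 4.91e-05), CDKN2A by 0.66 ± 0.14 (adjusted p = 0.00285) and CCND1 by 0.60 ± 0.12 (adjusted p = 0.00213). On the negative side CDK6 read -0.94 ± 0.12 (adjusted p = 9.45e-05), RB1 -0.72 ± 0.11 (adjusted p = 0.00036) and CDK4 -0.34 ± 0.10 (adjusted p = 0.0179). The CDK4 call was lost without RKO control replicate 1, shNT replicate 1 or either shCYP1B1 library (adjusted p from 0.056 to 0.0942). CCNE1 (0.39, adjusted p = 0.0516), CCNE2 (-0.44, adjusted p = 0.208) and CDKN1B (-0.22, adjusted p = 0.366) did not pass. CCNE1 passed under DESeq2 (adjusted p = 0.0479) and RLE scaling (0.0357), CCNE1 and CCNE2 without overexpression replicate 2 (0.0117 and 0.0252), and CDKN1B without overexpression replicate 1 (0.00713).

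Taken instead as manipulated minus control, a comparison added after the data were seen, the effects differed for 6 of the 10 genes, with a background of 37.5%. CCNE2 had the widest gap, RKO exceeding SW480 by 1.29 (95% interval 0.71 to 1.86, edgeR, adjusted p = 0.00261), followed by CDK6 at 0.78 (adjusted p = 0.000408) and CDK4 at 0.44 (adjusted p = 0.00556). CDKN1B ran the other way at -0.78 (adjusted p = 0.00633), as did CDK2 at -0.37 (adjusted p = 0.0191) and CCND3 at -0.30 (adjusted p = 0.0413). The CCND3 call was lost without any 1 of the 6 libraries other than overexpression (adjusted p from 0.0698 to 0.202), on library size scaling (0.0597) and with no filter (0.0638). The CDK2 call was lost without RKO control replicate 2, shNT replicate 2 or either shCYP1B1 library (adjusted p from 0.0736 to 0.132). For RB1, called lower in both lines, the difference was 0.13 with a 95% interval of -0.11 to 0.37, and for CDKN2A it was 0.11, from -0.20 to 0.41.

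The E2F targets are the output of this machinery. Of 30 E2F target genes of the G1/S transition, 18 rose and 3 fell in RKO with overexpression, where 13.8% of all genes rose and 13.8% fell, and their median was 0.43 against 0.00 over all genes. In shCYP1B1, 2 rose and 24 fell, where 25.3% of all genes went each way, with a median of -0.73. MCM7, a subunit of the replicative helicase, read 358 and 326 CPM in RKO control and 529 and 665 with overexpression (log2 fold change 0.81, edgeR, adjusted p = 0.000244). PCNA, the sliding clamp of DNA polymerase, rose in RKO by 0.66 (adjusted p = 0.000311) and fell in shCYP1B1 by 1.05 (adjusted p = 2.39e-06), from 279 and 273 to 139 and 127 CPM. TYMS, the thymidylate synthase gene, fell by 1.15 (adjusted p = 8.37e-07) and GINS2, of the helicase complex, by 1.23 (adjusted p = 2.18e-06). RBBP8, a DNA end resection gene, fell in RKO by 0.74 (adjusted p = 0.00034). The RKO count was 22 higher and 4 lower without overexpression replicate 1, and 17 and 3 without replicate 2. In the manipulated minus control comparison of the lines, the effect was higher in RKO for 25 of the 30 and lower for 2. Their median was 0.98. Of all genes, 19.2% were called higher and 18.3% lower, with a median of 0.00. The list's medians thus had opposite signs in the 2 lines, while CCND3 and CDK2 rose and RB1 fell in both.

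**Figure D4:**
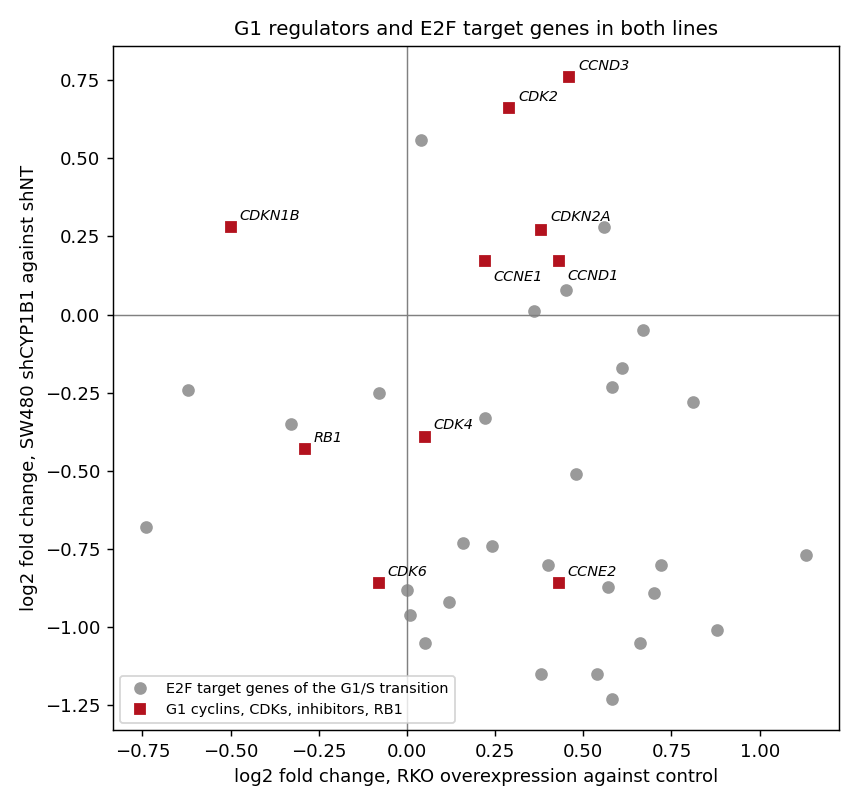
log2 fold change in RKO (overexpression against control, horizontal axis) and in SW480 (shCYP1B1 against shNT, vertical axis) for the 10 G1 genes (red squares) and the 30 E2F target genes (grey circles). Most grey circles lie at the lower right, with medians of 0.43 and -0.73, whereas CCND3 and CDK2 lie at the upper right and RB1 at the lower left.

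Of 25 other G1/S control genes, 5 rose and 4 fell in RKO, and 9 rose and 10 fell in shCYP1B1, where 27.6% and 50.6% of all genes were called. E2F1, an activating E2F, read 34.6 and 36.0 CPM in RKO control and 48.9 and 56.5 with overexpression, and rose by 0.58 (edgeR, adjusted p = 0.000923). In SW480 it fell by 0.49 (adjusted p = 0.000728), from 80.2 and 82.2 to 56.9 and 58.8 CPM. TFDP1, the E2F dimer partner, likewise rose in RKO (0.51, adjusted p = 0.000678) and fell in shCYP1B1 (-1.16, adjusted p = 6.33e-07). E2F2 fell by 1.73 and E2F3 by 0.96 in shCYP1B1 (adjusted p = 9.2e-06 and 8.54e-06). E2F7, a repressive member of the family, fell in RKO by 1.03 (adjusted p = 6.75e-05), from 118.1 and 117.9 to 54.3 and 61.5 CPM. CDC37, the chaperone that loads CDK4, rose in RKO by 0.48 (adjusted p = 0.00128).

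Of the 5 other CDK inhibitor genes, 2 rose in RKO, where 13.8% of all genes rose. In shCYP1B1, 3 rose and 1 fell, where 25.3% of all genes went each way. CDKN1C, which encodes p57, rose in both lines, by 0.74 in RKO (edgeR, adjusted p = 0.00662) and by 1.12 in shCYP1B1 (adjusted p = 0.000111), from 17.3 and 18.4 to 40.3 and 37.2 CPM. CDKN2C, the p18 gene, rose in RKO by 0.58 (adjusted p = 0.0422) and read 0.08 in SW480 (adjusted p = 0.71). CDKN2D, the p19 gene, rose in shCYP1B1 by 0.65 (adjusted p = 0.0282) and read 0.37 in RKO (adjusted p = 0.242). CDKN1A, which encodes p21, rose in shCYP1B1 by 0.64 (edgeR, adjusted p = 0.00031), from 124 and 130 to 204 and 192 CPM, and read -0.26 in RKO (adjusted p = 0.0829). CDKN2B, the p15 gene beside CDKN2A, fell in shCYP1B1 by 0.64 (adjusted p = 0.00274), from 19.0 and 19.7 to 13.1 and 11.6 CPM, and read 0.03 in RKO (adjusted p = 0.945). The neighbours CDKN2A and CDKN2B were thus called in opposite directions in the same libraries.

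Among 15 genes for the turnover of G1 cyclins and p27, 3 rose and none fell in RKO, and 3 rose and 5 fell in shCYP1B1, shares near or below the 27.6% and 50.6% of all genes called. SKP2, the substrate receptor of the ubiquitin ligase that marks p27 for destruction, read 40.3 and 40.7 CPM in RKO control and 67.6 and 82.6 with overexpression (0.89 ± 0.10, edgeR, adjusted p = 0.000191). Of the other parts of that ligase, SKP1 rose by 0.49 (adjusted p = 0.000358) and RBX1 by 0.60 (adjusted p = 0.0168), while CUL1 read -0.02 (adjusted p = 0.866) and the accessory CKS1B 0.08 (adjusted p = 0.476). In shCYP1B1, USP28, a deubiquitinase that opposes the cyclin E receptor FBXW7, fell by 0.79 (adjusted p = 6.05e-06), while FBXO31, a receptor for cyclin D1, rose by 0.74 (adjusted p = 2.8e-05) and USP2, a deubiquitinase of cyclin D1, by 1.44 (adjusted p = 0.00121).

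Among 18 transcription factors known to act on these genes, 1 rose and 7 fell in RKO, with a median of -0.27, and 9 rose and 4 fell in shCYP1B1, with a median of 0.23. Of all genes, 13.8% went each way in RKO and 25.3% each way in SW480. ETS1 fell in RKO by 1.01 (edgeR, adjusted p = 3.89e-05) and FOXO3, an activator of CDKN1B, by 0.61 (adjusted p = 0.00073). EGR1 fell there by 1.78 (adjusted p = 0.00316), with 160 and 52.0 CPM in the 2 overexpression libraries against 377 and 349 in the controls. JUN, the AP-1 subunit that acts on CCND1, fell in RKO by 0.41 (adjusted p = 0.00435) and rose in shCYP1B1 by 0.91 (adjusted p = 8.54e-06). LEF1 rose in shCYP1B1 by 0.84, RELA by 0.61 and FOSL1 by 0.59 (adjusted p = 2.3e-05, 2.39e-05 and 3.25e-05). Another list held 6 genes of DREAM and MuvB, complexes that regulate cell cycle genes. Of these, 3 rose and 1 fell in RKO, and 1 rose and 4 fell in shCYP1B1, beside the same shares of all genes. LIN54 fell in RKO by 0.80 (adjusted p = 0.000311), and MYBL2 rose there by 0.37 (adjusted p = 0.00592) and fell in shCYP1B1 by 0.62 (adjusted p = 6.94e-05). LIN37 rose in both, by 0.61 and 1.04 (adjusted p = 0.0186 and 0.000249). Of 6 reference genes, 3 rose in RKO with a median of 0.22, and 1 fell in SW480.

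For the member with the smallest p in each comparison, the 3 most similar genes were sought among 11086 genes by Pearson correlation of log2 CPM over the 8 libraries, centred within each line. CCND3, first within each line and in the CYP1B1-high minus low difference, was nearest to FAM78A, RAB11A and CRIPT, each at r = 0.998. CDKN2A, first between the controls, was nearest to HTRA2 at 0.992, GLRX5 at 0.990 and BRI3 at 0.986. CDK6, first in the manipulated minus control difference, was nearest to LOC100421372 at 0.999 and to TCP11L1 and POLQ at 0.998. With 8 points from 4 groups such values are a description of similar profiles, and all points share their libraries.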

How the data were processed

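Gene counts and FPKM values, deposited by the authors as tables of 16829 genes for 8 libraries, were analysed. Per the labels' protocols, a stranded mRNA kit turned total RNA into libraries. The submitters' processing notes name GRCh38.p13 as the build. An aligner, a counter and strand use were not given in the sources used here. Each deposited FPKM equals the count divided by gene length and library total for 16829 of 16829 genes, to within 1% in implied length.

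Counts were tested with edgeR 4.0.16 (R 4.3.3, quasi-likelihood, TMM, 1 model of 4 groups, 4 residual degrees of freedom) after filterByExpr (minimum count 10, minimum total 15), and Benjamini-Hochberg adjustment over 14157 genes, with a threshold of 0.05. An exact test of 2 against 2 libraries cannot go below 0.333. CPM values in the text use TMM-scaled totals, except those of CYP1B1, which use the library total. DESeq2 1.42.0, limma 3.58.1 on log2(FPKM + 1) or log2(FPKM + 0.1), other scalings and filters, a replicate block and each library left out were tried. The members, gene lists and tests were chosen with earlier results of these data known. Named besides the members were CYP1B1, E2F1, CCND2, CDKN1A, CDKN2B, up to 4 called genes per list with the smallest p in a comparison and the 3 nearest genes of the member with the smallest p in each comparison. INTS8, NDUFAF6, CUL1, CKS1B, CDKN1C, CDKN2C, CDKN2D and the epithelial markers were named after their values were seen.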

Additional observations from a re-analysis of the deposited data

Results flagged for a closer look

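The change that CYP1B1-high cells showed against CYP1B1-low cells differed between RKO and SW480 for 7 of the 10 genes by the direct test (edgeR, adjusted p below 0.05). Of all genes, 42.6% passed that test. RKO minus SW480, the log2 difference was 1.23 for CCND3, 0.95 for CDK2, 0.66 for CDKN2A, 0.60 for CCND1, -0.34 for CDK4, -0.94 for CDK6 and -0.72 for RB1. The CDK4 call was lost without some single libraries, as given above.

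The change of manipulated against control cells, compared after the data were seen, differed between the lines for 6 of the 10 genes. The share of all genes was 37.5%. The log2 difference was 1.29 for CCNE2, 0.78 for CDK6, 0.44 for CDK4, -0.30 for CCND3, -0.37 for CDK2 and -0.78 for CDKN1B. The CCND3 and CDK2 calls were lost without some single libraries, as given above. CDK2, CDK4, CDK6 and CCND3 appear under both views, which combine the same changes within each line and are not separate evidence.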

How the results depend on the processing

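Against a fold change of 1.5, members called numbered 0 in RKO (89 genes in all), 2 in SW480 (1994), 3 for the CYP1B1-high minus low difference (1961), 5 between the controls (6851), 1 for the manipulated minus control difference (1480) and 0 in both lines, the stricter null being built into that test. The number of genes called in all moved with the setting in both lines. In SW480 it also moved in the fits without 1 library, where more members tended to be called when more genes were called in all. The range of SW480 members below therefore does not show instability particular to the members. On the 2 groups alone, RKO gave 2 members and 2294 genes, against 6 and 3907, and 2 members in both lines. Leaving out 1 library, RKO gave 2 to 8 members and 1784 to 5629 genes, SW480 5 to 9 members, and both lines 1 to 6, and 2 in limma on log2(FPKM + 0.1). The sign reversed for CDK4 (-0.03) and CDK6 (0.03) in RKO without overexpression replicate 1 (0.12 and -0.20 without replicate 2), and, for manipulated minus control, for CCNE1 (-0.02 without RKO control replicate 2 or overexpression replicate 1, at most 0.14 without any other library) and CDKN2A (-0.02, limma on log2(FPKM + 1), filtered or not). None of these had passed, and the cause was not tested. Of the members' recomputed values in RKO, 165 kept direction and side of the threshold, 20 lost the call, 3 gained it and 2 reversed; in SW480 these numbered 173, 11, 6 and 0. Same-numbered replicates did not deviate together (r = -0.07 in RKO, -0.01 in SW480, 11087 genes). That shows no large shift shared by number, but cannot tell whether same-numbered libraries were prepared together. With the replicate number as a block, 6 members passed in RKO (3653 genes in all) and 7 in SW480 (6891 genes). CCND3 then lost its manipulated minus control difference (-0.30, edgeR, adjusted p = 0.064). With 2 libraries a group, differences near the replicate spread are not resolved.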
